A study of Mus musculus with 4 samples.

Results

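The sterol and fatty acid synthesis genes described here are 29 mouse genes that carry carbon from acetyl-CoA to cholesterol or to unsaturated fatty acids, or that regulate those steps. They were chosen as a named list of genes under the control of sterol regulatory element-binding proteins (SREBPs), by pathway and not by a threshold on these data, though with earlier results of the same data known. Of the 29, 28 were rows of all 4 count tables, among 11195 genes listed in all 4 and 13036 listed in at least 1. Fads2, a fatty acid desaturase, was listed in none, which leaves its level unknown.

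The study profiled single mononuclear cells sorted as CD45+CD11b+Ly6G- from the synovium of mouse hind paws during serum transfer arthritis, in which serum of arthritic K/BxN mice is given to a recipient. All mice, those at steady state included, were Cx3cr1creER:tdTomato animals, in which tamoxifen activates a Cre recombinase in cells that express the chemokine receptor gene Cx3cr1 and so leaves a heritable tdTomato label. All had received tamoxifen at 4 mg/ml, 4 weeks before the day of serum transfer. The groups are steady state without serum (day 0) and days 1, 2 and 5 after serum, with 1 library each, so day and library cannot be told apart. The labels used here do not give age, sex or the number of mice pooled in a library. With 1 library a day there is no replicate error and no test: every interval below is a 95% interval for counting error alone, and the difference between 2 libraries has no replicate check.

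Cells sense cholesterol in the membrane of the endoplasmic reticulum. When it is scarce, the escort protein SCAP carries SREBPs to the Golgi apparatus, where they are cut and released to the nucleus to switch on the enzymes of cholesterol and fatty acid synthesis. When it is plentiful, INSIG1 or INSIG2 holds SCAP back. Insig1 is itself an SREBP target and is therefore often read as a gauge of the pathway, and the question asked here was whether it moves with the enzymes it restrains. In macrophages the same pathway sets the supply of membrane lipid and of the oxysterol ligands of liver X receptors.

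Promoter sequences are shown for Insig1, which stood apart from the other genes by day, and for Hmgcs1, the enzyme whose window held the letters of a sterol regulatory element and whose level followed Insig1 within libraries. RefSeq start sites on GRCm38.p6 were matched for 22 of the 29 genes. Sequences run 5' to 3' on the plus strand of each gene, ahead of any annotated exon, and capitals mark the motifs searched on both strands. The sterol regulatory element was searched as TCACNCCAC. The E-box bound by SREBPs and other factors was searched as CACGTG. The CCAAT box, bound by the NF-Y partner of SREBPs, reads in reverse as ATTGG. The Insig1 stretch is chr5:28071162-28071362 on the + strand, positions -250 to -50 from the start, and the Hmgcs1 stretch is chr13:119690101-119690350 on the + strand, positions -250 to -1.
Insig1: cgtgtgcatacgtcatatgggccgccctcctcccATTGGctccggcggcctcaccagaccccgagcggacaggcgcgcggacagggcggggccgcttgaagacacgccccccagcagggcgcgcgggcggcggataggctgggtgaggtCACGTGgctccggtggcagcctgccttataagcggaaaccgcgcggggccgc
Hmgcs1: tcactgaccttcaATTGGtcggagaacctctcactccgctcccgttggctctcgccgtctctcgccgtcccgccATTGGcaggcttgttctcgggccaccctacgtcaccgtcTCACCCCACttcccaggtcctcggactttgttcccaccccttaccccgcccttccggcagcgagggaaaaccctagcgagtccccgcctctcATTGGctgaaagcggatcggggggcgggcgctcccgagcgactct

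Hmgcs1 held TCACCCCAC at positions -137 to -129 and 3 CCAAT boxes, and Insig1 held CACGTG at positions -101 to -96 and 1 CCAAT box. Over the 250 bases before the start on either strand, with no overlap between the motifs found in the printed windows, CCAAT was present for 17 of the 22 genes and for 37.5% of 27025 genes with a window. CACGTG was present for 5 of the 22 (Dhcr7, Hsd17b7, Insig1, Sc5d and Scap) and 6.86% of all genes. TCACNCCAC was present for Hmgcs1 alone, 1 of 22, and for 1.22% of all genes. A match is a run of letters, and its absence says only that the letters are not in this window.

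The 4 libraries differed in depth before any gene was compared. A barcode was kept when it held 500 genes or more and when under 10% of its UMIs (unique molecular identifiers, 1 per captured transcript molecule) were mitochondrial: 3715 of 7542 at day 0, 4642 of 4674 at day 1, 2722 of 2756 at day 2 and 3235 of 3265 at day 5. Kept barcodes held a median of 1057 UMIs at day 0 and of 3607.5 to 4183.5 on the later days, and summed to 4347517, 18373038, 12159063 and 14901661 UMIs. Splitting the day 0 barcodes by Sparc left 44 genes at least 2-fold higher and 49 lower of 7075, against 192 and 196 of 7492 at day 1. By H2-Aa the counts were 92 and 58 of 7093 at day 0, and 185 and 40 of 7444 at day 1. Cd163 and Spp1 gave more such genes at day 0. By Cd163 they were 61 and 66 of 7176, against 17 and 20 of 7389 at day 1. By Spp1 they were 217 and 321 of 7187, against 134 and 92 of 7464. Of the 3715 day 0 barcodes, 1914 held a UMI of Sparc and 2254 one of H2-Aa. All 5 genes of the sorted cells (Ptprc, Itgam, Csf1r, Cd68 and Adgre1) were listed on every day, with summed levels between 2134 and 2825 CPM (UMIs of a gene in 1000000 UMIs of its library), and Ly6g was listed on none. Pairs of libraries shared 10 to 22 kept barcode sequences. Results are therefore given both against day 0 and among days 1, 2 and 5 without it.

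In sum the synthesis genes other than Insig1 stayed nearly level from steady state to day 5, while single genes, among them Fads1 and Dhcr7, were lower at day 5. The 27 listed genes other than Insig1 summed to 543 CPM at day 0 (95% interval 521 to 565). On days 1, 2 and 5 they summed to 529 (519 to 540), 549.9 (537 to 563) and 519 (508 to 531) CPM. Over the same days Insig1 stood at 259, 42.3, 43.6 and 32.9 CPM. The highest day exceeded the lowest by less than 1.5-fold for 20 of the 28 genes and by 1.5-fold to under 2-fold for 6. Besides Insig1, Scd1 alone spanned 2-fold or more, with 4 UMIs at day 0 (0.920 CPM) and 2.50, 3.29 and 2.28 CPM later, too few at day 0 to place it.

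**Figure D1:**
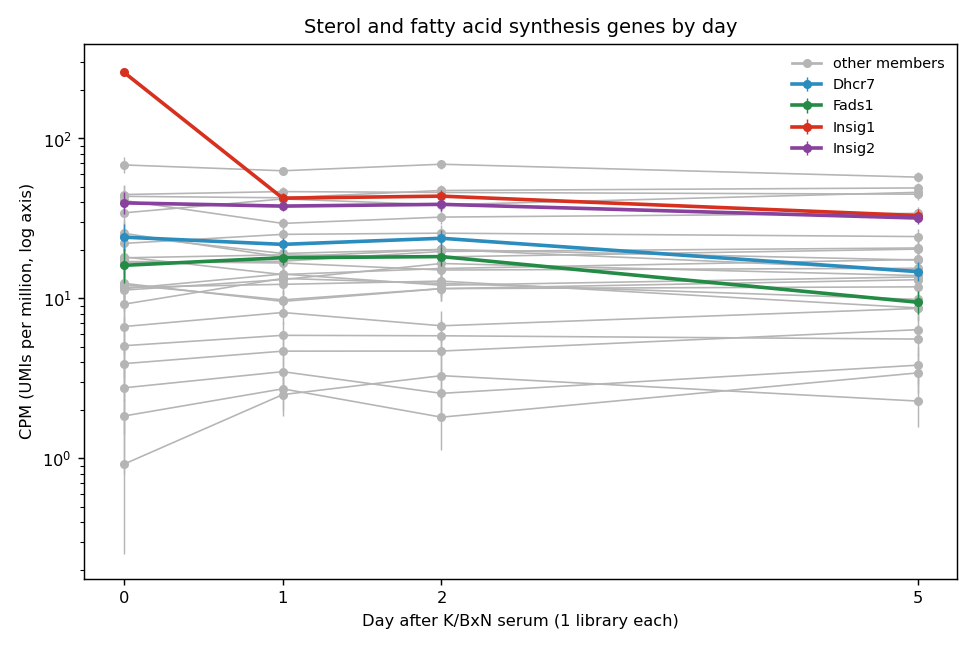
CPM (log axis) of the 28 listed genes against day after K/BxN serum, 1 library a day, with 95% counting intervals. Insig1 (red) stood at 259 CPM at day 0 and between 32.9 and 43.6 later, while most grey lines are level and Fads1 (green) and Dhcr7 (blue) are lowest at day 5.

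Mevalonate steps turn acetyl-CoA into the isoprenoid units of sterols. These 7 genes together gave 173 (161 to 186), 167 (161 to 173), 171 (164 to 179) and 184 (178 to 191) CPM on the 4 days in order. Hmgcs1, an early condensing enzyme of these steps, was at 40.9, 29.4, 32.2 and 34.0 CPM, highest in the day 0 library and nearly level after it. Pmvk, a kinase of mevalonate phosphate, was at 34.3, 41.9, 38.5 and 46.0 CPM, lowest at day 0 and highest at day 5. Mvk, the kinase ahead of it, was at 11.7, 12.2, 12.8 and 8.72 CPM, lowest at day 5, where its ratio to day 2 was 0.680 (0.535 to 0.864). Fdps, which joins isoprene units into farnesyl diphosphate, stayed between 42.6 and 49.1 CPM, and Idi1, the isomerase, between 17.9 and 20.3 CPM. Mvd, a decarboxylase, ranged from 14.1 to 18.2 CPM, and Acat2, the thiolase of the first step, from 6.67 to 8.66 CPM.

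From squalene onward the sum was lowest at day 5, but its genes differed: Dhcr7, Sc5d, Sqle and Msmo1 were lowest there, and Cyp51 and Lss highest. The 9 genes summed to 191 CPM (178 to 205), 172 (166 to 178), 185 (177 to 193) and 160 (154 to 166) at days 0, 1, 2 and 5. Msmo1, which removes methyl groups from sterol intermediates, was at 68.3, 62.8, 69.0 and 57.3 CPM. Dhcr7, the last reductase of cholesterol synthesis, was at 24.2, 21.8, 23.8 and 14.7 CPM: days 0 to 2 were close and day 5 was 0.618 times day 2 (0.516 to 0.740). Sc5d, a desaturase of the same late segment, was at 24.6, 19.1 and 20.2 CPM on days 0, 1 and 2 and lowest at day 5, with a day 5 to day 2 ratio of 0.743 (0.617 to 0.894). The synthesis genes therefore did not share a single course: Pmvk was highest at day 5, and Dhcr7, Sc5d and Mvk were lowest there. Sqle, squalene epoxidase, was at 25.5, 18.1, 20.2 and 17.4 CPM. Cyp51, which demethylates lanosterol, was at 16.8, 17.1, 19.7 and 20.7 CPM. Fdft1 (squalene synthase), Nsdhl (a sterol dehydrogenase), Hsd17b7 (a sterol ketone reductase) and Lss (lanosterol synthase) each stayed within 9.58 to 12.4, 11.5 to 14.2, 5.06 to 5.88 and 2.55 to 3.83 CPM, respectively. Stard4, a cytosolic sterol carrier, ranged from 9.80 CPM at day 1 to 13.1 CPM at day 5.

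The regulators other than Insig1 each stayed within 1.45-fold over the 4 days. Srebf1, whose product drives mainly fatty acid genes, was at 17.0, 16.7, 15.1 and 15.4 CPM, with intervals that overlap on all 4 days. Srebf2, whose product drives mainly sterol genes, was at 22.1, 25.1, 25.6 and 24.4 CPM, again with overlapping intervals. Scap was at 9.20, 13.3, 12.4 and 9.86 CPM, highest on days 1 and 2, with day 1 and day 2 intervals that overlapped that of day 0. Insig2, the second INSIG gene and one that is not driven by SREBPs in the way Insig1 is, was at 39.6, 37.8, 38.7 and 31.8 CPM, within 1.24-fold from highest to lowest.

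Insig1 was the departure. The day 0 library held 1126 of its UMIs (259 CPM, 244 to 275), the day 1 library 778 (42.3, 39.4 to 45.4), the day 2 library 530 (43.6, 40.0 to 47.5) and the day 5 library 491 (32.9, 30.1 to 36.0). Day 0 was thus the high sample, its interval far from the others, while days 1 and 2 overlapped and day 5 lay just under them. Relative to day 0, Insig1 was 6.12-fold lower at day 1 (5.58 to 6.71) and 5.94-fold lower at day 2 (5.35 to 6.60). The fold at day 5 was 7.86 (7.06 to 8.76), and all 3 comparisons share the same day 0 library. Few genes lay as far below day 0: 18 of 7354 measured genes had a ratio at or below that of Insig1 at day 1, 15 of 7320 at day 2 and 7 of 7419 at day 5. Without the day 0 library, Insig1 was 1.03 times day 1 at day 2 (0.920 to 1.15), and at day 5 it was 0.778 times day 1 (0.694 to 0.872) and 0.756 times day 2 (0.667 to 0.856). At day 5, Insig2 likewise was 0.821 times day 2 (0.721 to 0.935).

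Counts of genes past 2-fold say the same for the list. A gene was counted as measured where both tables listed it and 1 of the 2 libraries reached 10 CPM. Against day 0, 1 of 22 measured members at day 1, 1 of 22 at day 2 and 1 of 21 at day 5 was at least 2-fold lower, in each case Insig1, where the shares over all measured genes were 2.41%, 2.98% and 3.34%. No member was at least 2-fold higher, where the shares over all genes were 2.57%, 2.77% and 6.43%, and with so few members measured these shares are not far apart. The members' median log2 ratios were -0.03, 0.02 and -0.07, against 0.15, 0.14 and 0.11 over all measured genes. Among days 1, 2 and 5, 0 of 22 members passed 2-fold in either direction, where 0.0685%, 1.25% and 1.07% of all genes were lower and 0.0958%, 3.71% and 4.11% higher at day 2 against day 1, day 5 against day 1 and day 5 against day 2.

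**Figure D2:**
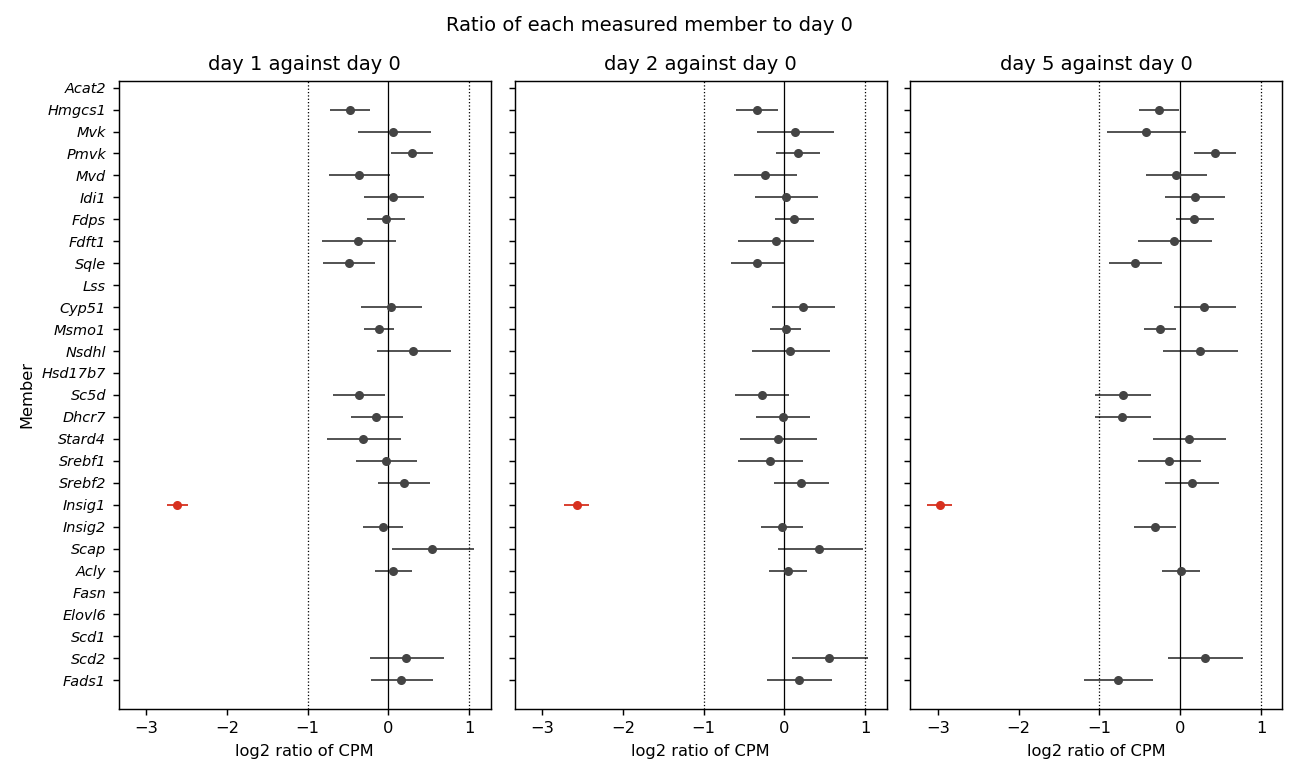
Log2 ratio of CPM to the day 0 library for each measured gene on days 1, 2 and 5, with 95% counting intervals; dotted lines mark 2-fold. Insig1 (red) lies at -2.61, -2.57 and -2.97, and every other point lies between the dotted lines.

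The fatty acid genes were nearly level in sum, and single genes less so. The 6 listed genes summed to 78.7 CPM (70.5 to 87.5), 87.5 (83.3 to 91.9), 90.5 (85.3 to 96.1) and 80.3 (75.8 to 84.9). Acly, which makes cytosolic acetyl-CoA from citrate, was at 44.6, 46.5, 46.0 and 44.8 CPM, the most even of the 28. Fads1, a desaturase of polyunsaturated fatty acids, was at 16.1, 18.0, 18.3 and 9.46 CPM, and its day 5 level was 0.518 times that of day 2 (0.417 to 0.643) and 0.527 times that of day 1 (0.429 to 0.644), just short of 2-fold. Scd2, a stearoyl-CoA desaturase, was at 11.3, 13.1, 16.5 and 13.9 CPM. Fasn, fatty acid synthase, was at 3.91, 4.68, 4.69 and 6.38 CPM and Elovl6, an elongase, at 1.84, 2.72, 1.81 and 3.42 CPM, both from 8 to 95 UMIs a library.

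None of the pathway genes outside the list that could be measured passed 2-fold either. Of 25 further genes of the sterol and SREBP pathway, 18, 18 and 17 were measured against day 0 on days 1, 2 and 5, and 0 passed 2-fold in either direction. With 2.41% to 3.34% of all genes lower and 2.57% to 6.43% higher, a list of this length would hold few or none in any case. Of 8 liver X receptor genes and targets, Nr1h3, a liver X receptor, passed 2-fold at day 5 alone, at 12.5 CPM against 6.21 at day 0 (2.02-fold, 1.35 to 3.15). It was then 1 of 8 measured genes of that list, where 6.43% of all genes were at least 2-fold higher.

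Other cells could add lipid synthesis RNA, and markers of other cells were present at levels that differed by day. Adipocyte genes summed to 10.8, 9.52, 26.6 and 17.2 CPM, with Plin1 and Lep listed on no day and Adipoq listed at day 2 only. Fibroblast genes summed to 40.0, 116, 85.5 and 89.3 CPM, lowest at day 0, where Insig1 was highest. Keratinocyte genes summed to 13.1 to 14.8 CPM on days 0 to 2 and 137 at day 5, with Krt5, Krt14 and Krt1 listed on no day. Erythroid genes summed to 0, 29.2, 5.18 and 161 CPM, with Alas2 listed on no day. B cell genes stood between 101 CPM at day 5 and 141 CPM at day 1, with Ms4a1 listed on no day and Cd79a listed at days 1 and 5 only. T or NK cell genes were listed at day 0 only (9.66 CPM), and the neutrophil, endothelial and muscle lists stayed at or under 21.5 CPM. The part of these cells in the results was not tested.

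The excess of Insig1 at day 0 was spread evenly over that library. Among its kept barcodes, 761 held 1 UMI of Insig1, 131 held 2 and 32 held 3 or more, and no barcode held more than 4. By genes per barcode, Insig1 ranged from 223 CPM at 1000 genes or more (170 to 289) to 293 CPM at 800 to under 1000 (251 to 339), and barcodes under 500 genes, which were otherwise left out, held 280 CPM (260 to 301). At 800 to under 1000 genes the later libraries were lower, with 51.8 CPM at day 1 (37.2 to 70.3), 68.4 at day 2 (43.4 to 103) and 28.4 at day 5 (14.2 to 50.8). At 600 to under 800 genes the gap to the 262 CPM of day 0 was smaller at day 2, at 127 CPM (84.3 to 183), and day 1 held 58.1 CPM (36.8 to 87.1). The day 0 library was both the shallowest and the highest in Insig1, and beyond these values the part of depth was not tested.

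Barcodes were next divided by whether they held a UMI of a marker gene: Sparc (lining macrophages), Cd163 (interstitial resident macrophages), H2-Aa (antigen presentation), Plac8 (monocytes), Spp1 (osteopontin-producing macrophages) or Top2a (cycling cells). The division was made within each library, a barcode can belong to several groups, and positive barcodes often held more UMIs. At day 0, Insig1 did not follow any marker that could be assessed: 258 CPM with Sparc and 260.5 without it, 258 and 259 by Cd163, 263 and 253 by H2-Aa, and 276 and 257 by Spp1, with all 4 ratio intervals spanning 1. Plac8 and Top2a marked only 32 and 36 day 0 barcodes, under the minimum of 50.

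After serum, Insig1 was higher in Sparc-positive barcodes. It stood at 51.1 CPM with Sparc and 35.3 without at day 1 (ratio 1.45, 1.26 to 1.67), at 48.4 and 38.1 at day 2 (1.27, 1.06 to 1.52) and at 50.6 and 25.5 at day 5 (1.99, 1.66 to 2.38). The Sparc-positive level was thus nearly the same on the 3 days, while the Sparc-negative level was lowest at day 5. Sparc-positive barcodes also held fewer of the library's UMIs then, 29.9% at day 5 against 53.0% at day 2 and 44.5% at day 1. With the day 2 share of UMIs, the Insig1 total at day 5 would have been 38.8 CPM, between the measured 32.9 and the 43.6 of day 2. That value reweights measured levels by UMIs, not by cells, and the part of the share in the day 5 total was not tested. Sparc-positive barcodes held a median of 4436, 4747 and 4437 UMIs on these days, and Sparc-negative ones 3116, 3579 and 3730. At day 5 Insig1 was also 1.41 times as high with Cd163 (1.15 to 1.71), and lower with Plac8 (0.763, 0.607 to 0.952) and with Spp1 (0.728, 0.599 to 0.882). Barcodes that held 1 of the 6 markers alone were also set against those that held none of them, and of these intervals only that of Sparc at day 1 did not span 1. By Sparc the ratio was 1.38 at day 1 (1.05 to 1.80), 1.06 at day 2 (0.749 to 1.504) and 1.51 at day 5 (0.941 to 2.47). At day 5 it was 0.855 by Cd163 (0.443 to 1.61), 0.993 by Plac8 (0.553 to 1.78) and 0.515 by Spp1 (0.238 to 1.05). With H2-Aa its ratios were 0.923, 1.04 and 0.920 on days 1, 2 and 5, each interval spanning 1.

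**Figure D3:**
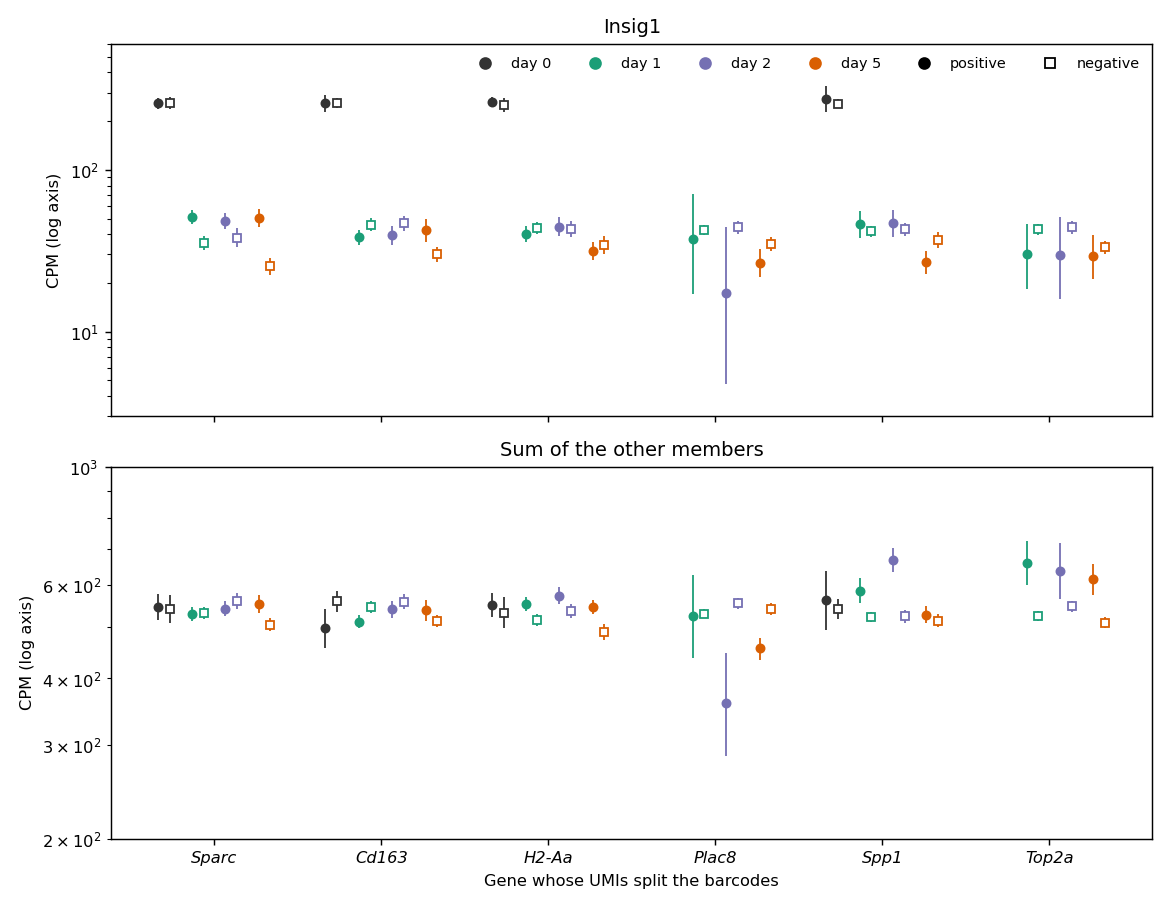
CPM (log axis) of Insig1 (upper panel) and of the sum of the other listed genes (lower panel) in barcodes positive (filled circle) or negative (open square) for each of 6 markers, by day, with 95% counting intervals; groups under 50 barcodes are not drawn. At day 0 Insig1 pairs coincide near 260 CPM, and after serum the Sparc pairs separate more for Insig1 than for the sum of the others.

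Dhcr7 shared the Sparc pattern. It stood at 27.1, 27.3, 28.1 and 27.6 CPM in Sparc-positive barcodes on the 4 days, and at 20.7, 17.4, 18.9 and 9.19 CPM in Sparc-negative ones. The Sparc-positive level hardly moved and the Sparc-negative level was lowest at day 5, where the ratio between the groups was 3.01 (2.29 to 3.97). With the day 2 share of UMIs in Sparc-positive barcodes, the Dhcr7 total at day 5 would have been 19.0 CPM, against 14.7 measured and 23.8 at day 2. The part of this share in the Dhcr7 total was likewise not tested. Dhcr7 was 1 of 20 measured members at least 2-fold higher with Sparc at day 5, where 6.72% of all genes were. Msmo1 at day 5 was at 70.3 CPM with Sparc and 51.8 without (1.36, 1.18 to 1.56), and Fads1 had a ratio of 1.64 (1.15 to 2.32). Scd2 changed sides: its ratio was 1.49 at day 1 (1.14 to 1.93) and 1.77 at day 2 (1.31 to 2.42; 20.8 and 11.7 CPM), then 0.616 at day 5 (0.429 to 0.866; 9.66 and 15.7 CPM). Across these opposed genes the sum of the 27 had Sparc ratios of 1.01, 0.995, 0.966 and 1.10 in the order of the days, highest at day 5. By Cd163, without Insig1, 7 of 21 measured members had a ratio above 1 at day 0, where 51.2% of all genes did. Their median log2 ratio there was -0.19, against 0.01 over all genes. On days 1, 2 and 5, 10 of 22, 11 of 21 and 14 of 20 members were above 1 by Cd163. The shares over all genes were 54.2%, 54.8% and 56.4%.

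**Figure D4:**
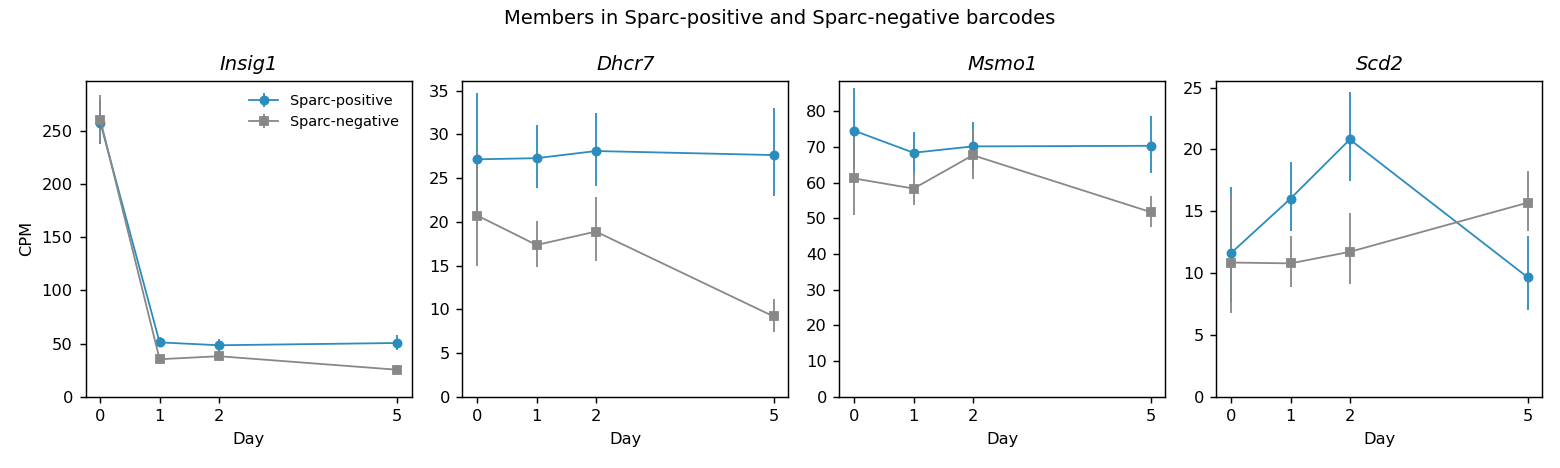
CPM of Insig1, Dhcr7, Msmo1 and Scd2 by day in Sparc-positive (blue circles) and Sparc-negative (grey squares) barcodes, with 95% counting intervals. Dhcr7 stays between 27.1 and 28.1 CPM with Sparc and is 9.19 CPM without it at day 5; Scd2 is higher with Sparc at days 1 and 2 and lower at day 5.

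Monocyte-marked barcodes held less of several members at day 5, as they did of most genes. The members' median log2 ratio was -0.18, the same as over all genes, and 7 of 20 members and 36.3% of all genes had a ratio above 1. With Plac8 the sum of the 27 was 455 CPM and without it 541 (0.842, 0.798 to 0.889). Dhcr7 was at 5.56 and 17.8 CPM (0.313, 0.189 to 0.491), Fads1 at 5.03 and 10.96 (0.459, 0.267 to 0.748) and Scap at 5.30 and 11.4 (0.464, 0.274 to 0.747), from 21, 19 and 20 UMIs in 826 Plac8-positive barcodes. These 3 of 20 measured members were at least 2-fold lower where 11.3% of all genes were, a similar share. Insig2 (0.607, 0.472 to 0.773), Hmgcs1 (0.619, 0.486 to 0.781) and Acly (0.632, 0.514 to 0.773) were also lower, while Cyp51 was higher, at 27.3 and 18.4 CPM (1.48, 1.16 to 1.89). Plac8-positive and negative barcodes had nearly equal median UMIs, 3893.5 and 3897. The groups at days 1 and 2 held 59 and 52 barcodes, with ratios for the sum of 0.991 (0.824 to 1.18) and 0.650 (0.517 to 0.807).

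H2-Aa-positive barcodes held more mevalonate RNA in sum after serum, led by Hmgcs1 and Fdps. The 7 genes stood at 181 CPM with H2-Aa and 158 without at day 1 (1.15, 1.07 to 1.23), at 185 and 162 at day 2 (1.14, 1.04 to 1.24) and at 205 and 161 at day 5 (1.27, 1.18 to 1.37), but at 175 and 170.3 at day 0 (1.03, 0.884 to 1.20). Hmgcs1 differed most at day 1, at 40.3 CPM (35.8 to 45.2) and 22.4 CPM, and Fdps had a ratio of 1.35 (1.17 to 1.55) there. Pmvk was lower with H2-Aa at day 1 (0.804, 0.690 to 0.934). Without Hmgcs1 and Fdps, a split made after their values were seen, the other 5 genes gave a day 1 ratio of 0.922 (interval 0.836 to 1.02), a day 2 ratio of 1.07 (interval 0.943 to 1.20) and a day 5 ratio of 1.19 (interval 1.07 to 1.32). Insig2 went the other way, at 0.797 (0.678 to 0.935) at day 1 and 0.724 (0.601 to 0.871) at day 5. Hmgcs1 and Insig2 thus lay on opposite sides of this marker on days 1, 2 and 5. Outside the mevalonate steps, Cyp51 had ratios of 1.35, 1.61 and 1.38 on days 1, 2 and 5, each interval above 1. Scd2 had ratios of 1.36, 1.44 and 1.72, again with intervals above 1. Dhcr7 was lower, at 0.740, 0.780 and 0.739, with only the day 2 interval reaching 1. Without Insig1, 15 of 20, 13 of 21 and 12 of 19 measured members had a ratio above 1. The shares over all genes were 36.6%, 38.6% and 45%.

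Spp1-positive barcodes held more of the list in sum at days 1 and 2. The sum of the 27 was 585 CPM with Spp1 and 521 without at day 1 (1.12, 1.06 to 1.19), 668 and 523 at day 2 (1.28, 1.21 to 1.35), and 527 and 514 at day 5 (1.03, 0.980 to 1.07). At day 2, Hmgcs1 had a ratio of 1.78 (1.41 to 2.22), Fdps was at 68.7 and 42.4 (1.62, 1.34 to 1.95) and Msmo1 at 95.2 and 63.0 (1.51, 1.29 to 1.77), with Insig1 at 46.9 and 42.8 (1.10, 0.878 to 1.36). Spp1-positive barcodes held a median of 5155 UMIs against 3496.5 at day 1, 5529 against 3998 at day 2, and 4233.5 against 3778 at day 5. The difference between the days was not tested.

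Cycling barcodes held more of the list in sum. With Top2a the sum was 660.0 CPM against 524 at day 1 (1.26, 1.14 to 1.38), 638 against 547 at day 2 (1.17, 1.03 to 1.32) and 615 against 509 at day 5 (1.21, 1.12 to 1.296), in 98, 56 and 143 barcodes. At day 1, Stard4 (28.6 and 9.09 CPM), Mvk (34.6 and 11.4), Fdft1 (24.1 and 9.04) and Scd2 (27.1 and 12.6) were at least 2-fold higher, 4 of 22 measured members where 10.8% of all genes were. At day 2 Scd2 alone was, at 34.4 and 15.9 CPM (2.17, 1.19 to 3.67), 1 of 21 where 10.3% of all genes were. At day 5, Acat2 alone was, at 20.8 and 7.40 CPM (2.80, 1.79 to 4.27), 1 of 22 where 13.2% of all genes were. Insig1 did not share this difference, with ratios of 0.702 (0.427 to 1.09), 0.676 (0.358 to 1.17) and 0.881 (0.623 to 1.21). Top2a-positive barcodes held a median of 6243, 7943 and 7379 UMIs and the others 3576, 4158.5 and 3846.5, and the part of depth was not tested.

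Whether Insig1 moves with the rest had different answers across libraries and within them. Within a library, the other 27 genes were summed in barcodes with and without an Insig1 UMI, with Insig1 left out of the totals. At day 0 the sums were 561 and 537 CPM (1.05, 0.954 to 1.15), in 924 and 2791 barcodes. They were 642 and 507 at day 1 (1.27, 1.20 to 1.33; 655 and 3987 barcodes), 649 and 527 at day 2 (1.23, 1.16 to 1.31; 439 and 2283) and 713 and 483 at day 5 (1.47, 1.40 to 1.56; 417 and 2818). Insig1-positive barcodes thus held more synthesis RNA on the 3 days after serum, and at day 0 the interval spanned 1. They also held more UMIs, with medians of 1119, 4355, 4771 and 4471 against 1034, 3510, 4052 and 3827. With Insig1 called after each barcode was thinned to 500 UMIs, the ratios after serum were 1.34, 1.37 and 1.35, closer to each other than before. Only 2.24%, 2.09% and 1.58% of kept barcodes were then Insig1-positive, so this closeness rests on few barcodes.

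Both sterol segments showed this difference after serum, though not in every gene and not alone. From squalene onward the day 0 ratio was 0.985 (0.841 to 1.15), and the later ratios were 1.34 (1.23 to 1.46), 1.34 (1.21 to 1.47) and 1.70 (1.55 to 1.87). For the mevalonate steps they were 1.09, 1.32, 1.24 and 1.52 in the order of the days. At day 5, Sqle was at 34.7 CPM with Insig1 and 14.2 without (2.45, 1.86 to 3.21), Cyp51 at 39.4 and 17.2 (2.295, 1.78 to 2.94), Fdft1 at 21.0 and 10.1 (2.08, 1.46 to 2.91) and Hmgcs1 at 60.5 and 29.1 (2.08, 1.70 to 2.53). These were 4 of 22 measured members at least 2-fold higher, where 0.687% of all genes were. At days 0, 1 and 2 it was 0 of 21 members, with 0.63%, 0.217% and 0.326% of all genes. Outside the 2 segments, Stard4 (1.86, 1.32 to 2.58) and Scap (1.88, 1.26 to 2.74) were also higher with Insig1 at day 5. Within them, Nsdhl (1.32, 0.911 to 1.88) and Lss (1.01, 0.436 to 2.08, under 10 CPM) had intervals that spanned 1. Hmgcs1, whose promoter is printed above, followed Insig1 after serum (1.81 at day 1 and 1.67 at day 2) and not at day 0 (1.10, 0.778 to 1.53).

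Several members did not follow Insig1 after serum. Insig2 had ratios of 1.09, 1.06, 1.07 and 0.856 on days 0, 1, 2 and 5, with every interval spanning 1, so the paired INSIG gene was no higher in Insig1-positive barcodes. Pmvk was higher with Insig1 at day 0 (1.47, 1.03 to 2.08) and then at 0.967 at day 1, 0.920 at day 2 and 0.845 at day 5, with intervals that span 1. Fads1 was at 0.624, 0.911, 1.18 and 1.11 on the 4 days, each interval spanning 1. Acly was at 1.06, 1.12, 1.08 and 1.14. The SREBP genes were mixed. Srebf2 was higher with Insig1 at days 1 (1.36, 1.08 to 1.70) and 5 (1.60, 1.23 to 2.05). Its intervals spanned 1 at day 0 (0.814, 0.481 to 1.32) and day 2 (1.12, 0.833 to 1.48). Srebf1 was at 1.23 and 1.40 on days 0 and 1, then at 0.932 (0.616 to 1.37) at day 2 and 0.967 (0.655 to 1.39) at day 5. Members with a ratio above 1 numbered 13 of 21 at day 0, 17 of 21 at day 1, 17 of 21 at day 2 and 19 of 22 at day 5, and their median log2 ratios were 0.08, 0.39, 0.26 and 0.66, against -0.01, -0.02, -0.02 and 0.01 over all genes.

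**Figure D5:**
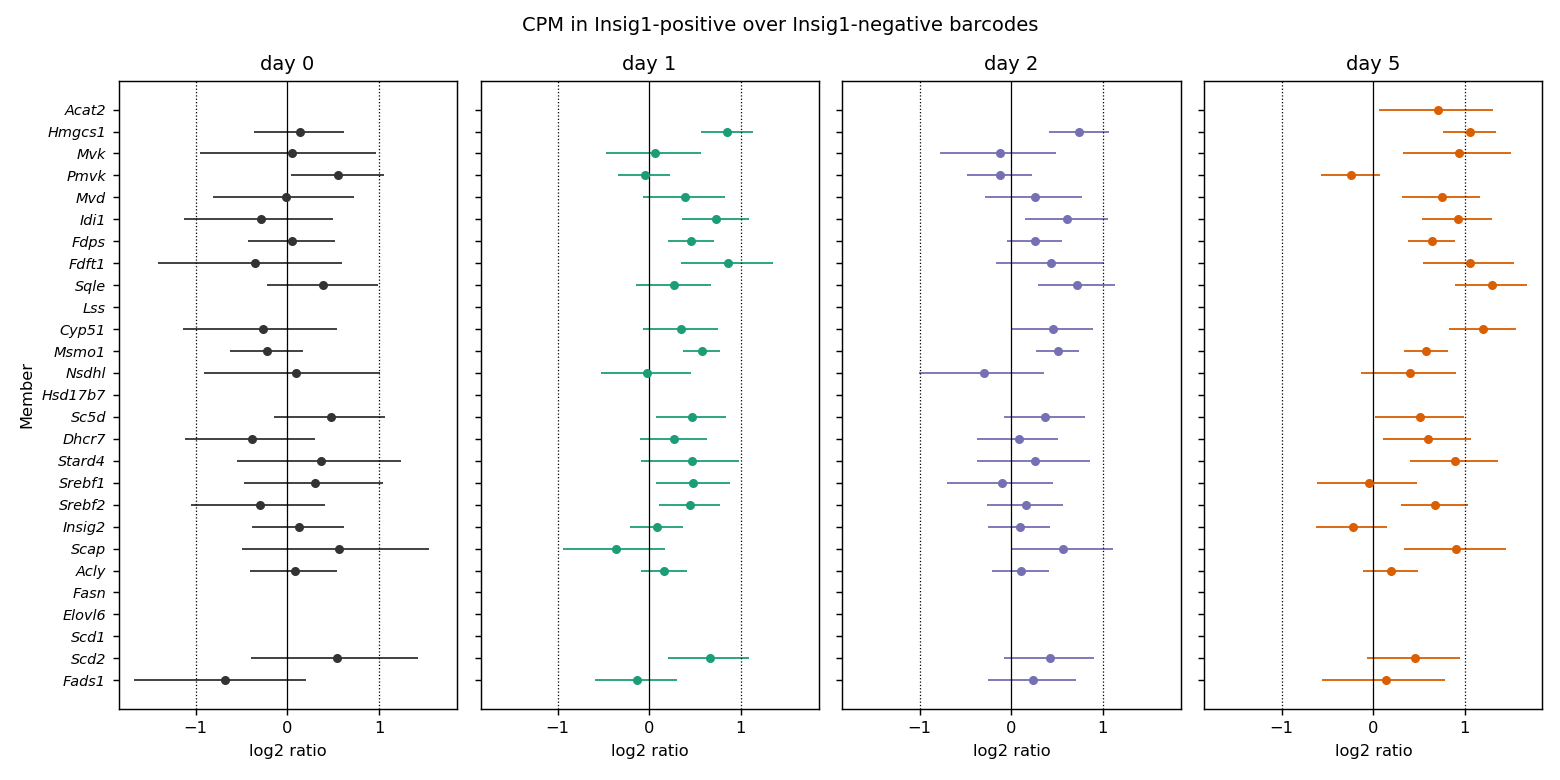
Log2 ratio of CPM in Insig1-positive over Insig1-negative barcodes for each measured gene, by day, with 95% counting intervals; dotted lines mark 2-fold. Points scatter about 0 at day 0 and lie mostly to the right at day 5, where Sqle, Cyp51, Fdft1 and Hmgcs1 pass 2-fold; Insig2 and Pmvk do not follow at days 1, 2 and 5.

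Insig1 was not special in this respect. Splitting the barcodes by every member with enough positive barcodes, a step added after the values for Insig1 were seen, gave median ratios for the remaining genes of 1.04, 1.23, 1.21 and 1.46 on the 4 days. Insig1 ranked 10 of 19, 9 of 26, 12 of 25 and 11 of 26 from the highest. The strongest divider was Sqle at day 0 (1.34), Idi1 at day 1 (1.49) and Sqle at days 2 (1.58) and 5 (1.91), and the weakest was Dhcr7 at day 0 (0.884), Insig2 at day 1 (1.04), Acly at day 2 (1.00) and Srebf1 at day 5 (1.09). The list thus varied together from barcode to barcode least in the day 0 library, which is also the shallowest, for Insig1 and for the enzymes alike.

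Across libraries and markers the likeness of Insig1 to its own pathway depended on the day 0 library. Over 22 groups of 1 library and 1 marker, log2 of CPM with 5 added had a Pearson correlation of 0.095 between Insig1 and the sum of the others, and over the 18 groups of days 1, 2 and 5 it was 0.49. Groups share libraries and barcodes, so these are descriptions with no test. The median correlation with Insig1 was -0.04 over the 27 members and -0.07 over 2957 genes in all groups, and 0.28 and 0.05 in the later days. The 2957 genes were listed in all 4 tables and had at least 50 CPM in 1 library. Only 2 of the 28 listed members, Insig1 included, reached that level, so the medians compare genes of unlike level. Among members the highest were Sqle (0.67), Sc5d (0.57) and Insig2 (0.45) over all groups, and Msmo1 (0.78), Hsd17b7 (0.77) and Scap (0.70) over the later days. The lowest were Fdps (-0.42), Scd1 (-0.37) and Nsdhl (-0.36) over all groups, and Mvd (-0.35), Fdps (-0.32) and Stard4 (-0.14) over the later days. Hmgcs1, whose promoter is printed above, was at 0.28 over all groups and 0.05 over the later days. Among the 2957 genes, a far longer list than the members and so one with higher extremes, the most like Insig1 over all groups were Alkbh5 (0.97), Gnb1 (0.97), Lrrc8a (0.96), Slc39a1 (0.95) and Notch2 (0.95). All 5 were highest at day 0: Notch2, for example, was at 414 CPM at day 0 and 65.5 at day 1, and Alkbh5 at 227 and 42.2. Without day 0 the list was Ndfip2, Tcim, Unc50, Cmtm3 and Tmem192, with correlations from 0.89 to 0.91.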

How the data were processed

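Libraries were 10x Genomics Chromium 3' end libraries (v2 chemistry) from 17400 loaded cells a sample, per the labels' protocols, and Cell Ranger 2.1.0, Seurat 2.3, R 3.5.2 and mm10 are named in the submitters' processing notes without a role for each. The files deposited by the authors give whole, unnormalized UMI counts for each gene in each barcode, for genes found in at least 5 barcodes of a library. Intervals from such counts cover counting error only.

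Counts were summed over barcodes that passed both limits, 500 genes and 10% mitochondrial UMIs, and given as CPM with exact Poisson 95% intervals. Ratios have exact conditional Poisson intervals, and a count of 0 was set to 3 counts. A measured gene had 10 CPM in 1 of the 2 groups, the size rule was 2-fold, and groups needed 50 barcodes. No doublet caller was run and doublets remain. All members were named by their levels, with full values for the regulators and for genes at 50 CPM or more, and the closest and farthest 3 members and 5 genes by correlation with Insig1 (5 CPM added). Genes singled out in marker groups or Insig1 splits were chosen after their values were seen. Some genes of the further lists are not reported here by name. Members and lists were chosen with earlier results of these data known. Alternatives were 200 or 1000 genes, 5% mitochondrial UMIs, median-ratio scaling, no filter on low values, the mean of each barcode's CPM, 2 UMIs of a marker, thinning to 500 UMIs, 1 marker alone and, added after seeing the data, leaving out barcodes over 3 times the median UMIs. Python 3.11.15, NumPy 2.4.6, SciPy 1.17.1 and matplotlib 3.10.9 were used, and ratios and intervals were tested on simulated data.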

Additional observations from a re-analysis of the deposited data

Results flagged for a closer look

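Insig1 differed in direction by Cd163 between days: its ratio in Cd163-positive over Cd163-negative barcodes was 0.835 at day 1 and 1.41 at day 5, each with a counting interval on 1 side of 1. In barcodes holding Cd163 and none of the other 5 markers, against those with none of the 6, the ratios were 0.794 (0.581 to 1.08) at day 1 and 0.855 (0.443 to 1.61) at day 5. Scd2 did so by Sparc, at 1.49 at day 1, 1.77 at day 2 and 0.616 at day 5. With 1 library a day the difference between days was not tested for either gene.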

How the results depend on the processing

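No paired analysis was possible because each day has 1 library, and for the same reason no replicate could be left out. Of the values whose interval lay on 1 side of 1, 2 changed direction. The sum by Cd163 at day 0 was 0.890 with calls from 1 UMI and 1.04 with calls from 2 UMIs. Insig1 by Cd163 at day 5 was 1.41 as reported and 0.855 in barcodes positive for 1 marker alone. The minimum of 1000 genes, which leaves 96 day 0 barcodes, moved the members' median log2 ratios to day 0 to 0.34, 0.40 and 0.38 at days 1, 2 and 5, the members at least 2-fold higher to 2, 4 and 4, those lower at day 5 to 3, and Insig1 to -2.43 at day 1 and -2.76 at day 5. Median-ratio scaling shifted every ratio to day 0 by -0.17, -0.14 and -0.10 and gave Insig1 -2.78 at day 1, and the mean of each barcode's CPM gave it -2.41 at day 2. With no filter on low values, 1 member was at least 2-fold higher than at day 0 on each later day. For the sum of the other members by marker, calls from 2 UMIs also gave 0.902 (Cd163, day 2), 1.13 (H2-Aa, day 1), 0.976 (Spp1, day 5) and 1.34 (Top2a, day 5). Calls after thinning to 500 UMIs gave 0.846 (Cd163, day 1), 0.884 (Cd163, day 5), 1.15 (H2-Aa, day 1), 1.21 (Spp1, day 1) and 0.864 (Spp1, day 5). Values whose interval spanned 1 as reported were not counted as changes of direction. The sum by Spp1 at day 5, which thinning put below 1, is such a value. The sums by Cd163 after day 0 and by H2-Aa with calls from 1 UMI are not reported here. Barcodes positive for 1 marker alone gave 1.18 (Sparc, day 5), 0.875 (Cd163, day 1), 1.02 (H2-Aa, day 2), 1.07 (H2-Aa, day 5), 0.740 (Plac8, day 5) and 0.744 (Spp1, day 5). The mean of each barcode's CPM gave 1.04 (Sparc, day 1) and 0.980 (Spp1, day 5). For barcodes split by Insig1, thinning gave 1.34, 1.37 and 1.35 at days 1, 2 and 5, and at day 5 the mean of each barcode's CPM gave 1.38 and leaving out barcodes over 3 times the median UMIs gave 1.39. The causes were not tested. The alternatives that left a group under 50 barcodes were not run. Depth limits day 0 most, where 12 or fewer UMIs were counted for Lss, Elovl6 and Scd1.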
